A study of Mus musculus with 12 samples.

Results

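The EGF receptor family of the mouse was followed across kidney tumors without Lats1 and Lats2, their lung metastases, tumors grown from cells lacking both genes, and sorted proximal tubule cells. The family was taken as 10 genes by symbol, of 24432 genes in the deposited table: the 6 ligands Egf, Tgfa, Areg, Ereg, Hbegf and Btc, and the 4 receptors Egfr, Erbb2, Erbb3 and Erbb4. All 10 passed the filter on low values (at least 1 FPKM in 3 of the 12 libraries), but Areg and Ereg did so through the lung metastases alone. For that reason a difference between the metastases and the other groups was built into their being tested. The 12 bulk RNA libraries formed 4 groups of 3. Primary tumors and lung metastases were dissected from Slc34a1CreERT2;Lats1/2flox/flox mice 4 months after tamoxifen, which was given as 3 injections to mice 1 month old. In these mice the Cre recombinase is driven by Slc34a1, a gene of the proximal tubule, and works only after tamoxifen. Allograft tumors came from Lats1-/-;Lats2-/- cells that were placed under the renal capsule of NOD/scid hosts aged 6 to 8 weeks, which lack functional T and B cells, and were taken 6 weeks later. Proximal tubule cells were isolated by fluorescence-activated sorting from adult Slc34a1CreERT2;Lats1c/c;Lats2c/+;RosaTomato mice. These control mice therefore carried the same Cre driver, conditional alleles of Lats1 on both copies and of Lats2 on 1 copy. Their libraries are described as wild type, and the sources used here do not say whether recombination had occurred. The strain background is given as mixed. The labels do not tie replicates to different animals, and the p-values thus reflect the spread among these libraries alone, some of which may be technical.

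The ligands of this family are made as membrane proteins, cut free by proteases such as ADAM10 and ADAM17, and bind the extracellular part of a receptor. EGF, TGF-alpha and amphiregulin (Areg) bind EGFR, whereas heparin-binding EGF (Hbegf), betacellulin (Btc) and epiregulin (Ereg) can also bind ERBB4. Bound receptors pair with each other. ERBB2 has no known ligand of its own and acts as a partner, and ERBB3 has a weak kinase and signals through its partner to phosphatidylinositol 3-kinase. In the kidney Egf is known as a product of the thick ascending limb and the distal convoluted tubule, and EGFR is known from most tubule segments. LATS1 and LATS2 are kinases that keep the coactivators YAP and TAZ out of the nucleus, and Areg is among the genes described as targets of YAP with its DNA-binding partners of the TEAD family.

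Values are FPKM, in which fragments are divided by transcript length and library size, so levels of different genes can be set beside each other per length. Column sums ran from 706093 to 2527747 FPKM, with the 3 sorted-cell libraries lowest. From the steps between low values the tumor libraries held an estimated 12900000 to 20900000 fragments. In the sorted-cell libraries exact steps were less common (45% to 45.4% of tested genes, against 70.0% to 73.0% in tumors) and the estimate was 5350000 to 7120000 fragments. The sources used here do not say whether both sets of columns share tool settings and gene lengths, on which every change against the sorted cells rests. At that depth 1 fragment on a 2 kb transcript equals 0.0807 to 0.107 FPKM in sorted cells and 0.0273 to 0.0444 in tumors. Lats1 was listed at 12.5 ± 0.476 FPKM in sorted cells, 13.3 ± 1.27 in primary tumors, 10.2 ± 0.583 in metastases and 6.91 ± 1.16 in allografts (SD, n = 3), and Lats2 at 10.7 ± 0.236, 17.9 ± 4.41, 21.6 ± 1.48 and 15.3 ± 2.70. These are values of the whole gene, which do not resolve the deleted exons, so they do not check the deletion. Slc34a1, the marker that drives the Cre, was 866 to 1040 FPKM in sorted cells, 6.17, 833 and 166 in primary tumors 1 to 3, at most 0.0951 in metastases and at most 1.37 in allografts. Primary tumors 2 and 3 thus held far more of this kidney transcript than primary tumor 1. Correlations of the log2 values within a group were 0.961 to 0.969 in sorted cells, 0.953 to 0.963 in metastases, 0.919 to 0.949 in allografts and 0.797 to 0.928 in primary tumors.

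Changes are differences of mean log2(FPKM + 1) ± SE from limma, with 3 libraries on each side, and a gene is called where its Benjamini-Hochberg adjusted p over 16313 genes was under 0.05. On this scale the changes of genes of low level are understated. The median of all genes was 0.59 higher in primary tumors, 0.68 in metastases and 0.66 in allografts than in sorted cells, and at most 0.03 apart between tumor groups. After rescaling to TPM these 3 medians were -0.29, -0.18 and -0.37, and after median-of-ratios scaling 0.09, 0.20 and 0.19. Changes against sorted cells are therefore also given relative to the median of all genes.

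In primary tumors against sorted cells 3 of the 10 genes were called higher (Tgfa, Ereg and Erbb4) and 1 lower (Erbb2), where 53.1% of all genes were called, 48.2% higher and 4.90% lower. This split moved with the scaling: it was 1 higher and 4 lower after rescaling to TPM, 1 and 3 after median-of-ratios scaling, 0 and 2 after quantile normalization, and 1 and 2 after leaving out the 50 most abundant genes. In metastases against sorted cells 4 were called higher (Tgfa, Areg, Ereg, Hbegf) and 4 lower (Egf, Erbb2, Erbb3, Erbb4), where 68.4% of all genes were called, 54.0% higher and 14.4% lower; with quantile normalization 2 were higher and 4 lower. In allografts against sorted cells 3 were called higher (Tgfa, Ereg, Hbegf) and the same 4 lower, where 69.1% of all genes were called, 52.2% higher and 16.9% lower. There the split was 2 and 5 after rescaling to TPM and 1 and 4 after quantile normalization. The share of called members was below that of all genes in primary tumors and near it in allografts. In metastases it was above that of all genes, but it counts Areg and Ereg, which passed the filter through the metastases alone. That share was therefore partly built in, and with 10 members it was not tested. The median change of the 10 genes was 0.27, -0.24 and -0.09 in the 3 comparisons, below the medians of all genes given above. The 3 comparisons share the sorted-cell libraries. Here and below, shares of all genes called under other scalings are not given. Splits under those scalings are therefore not read as a result about the family.

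**Figure D1:**
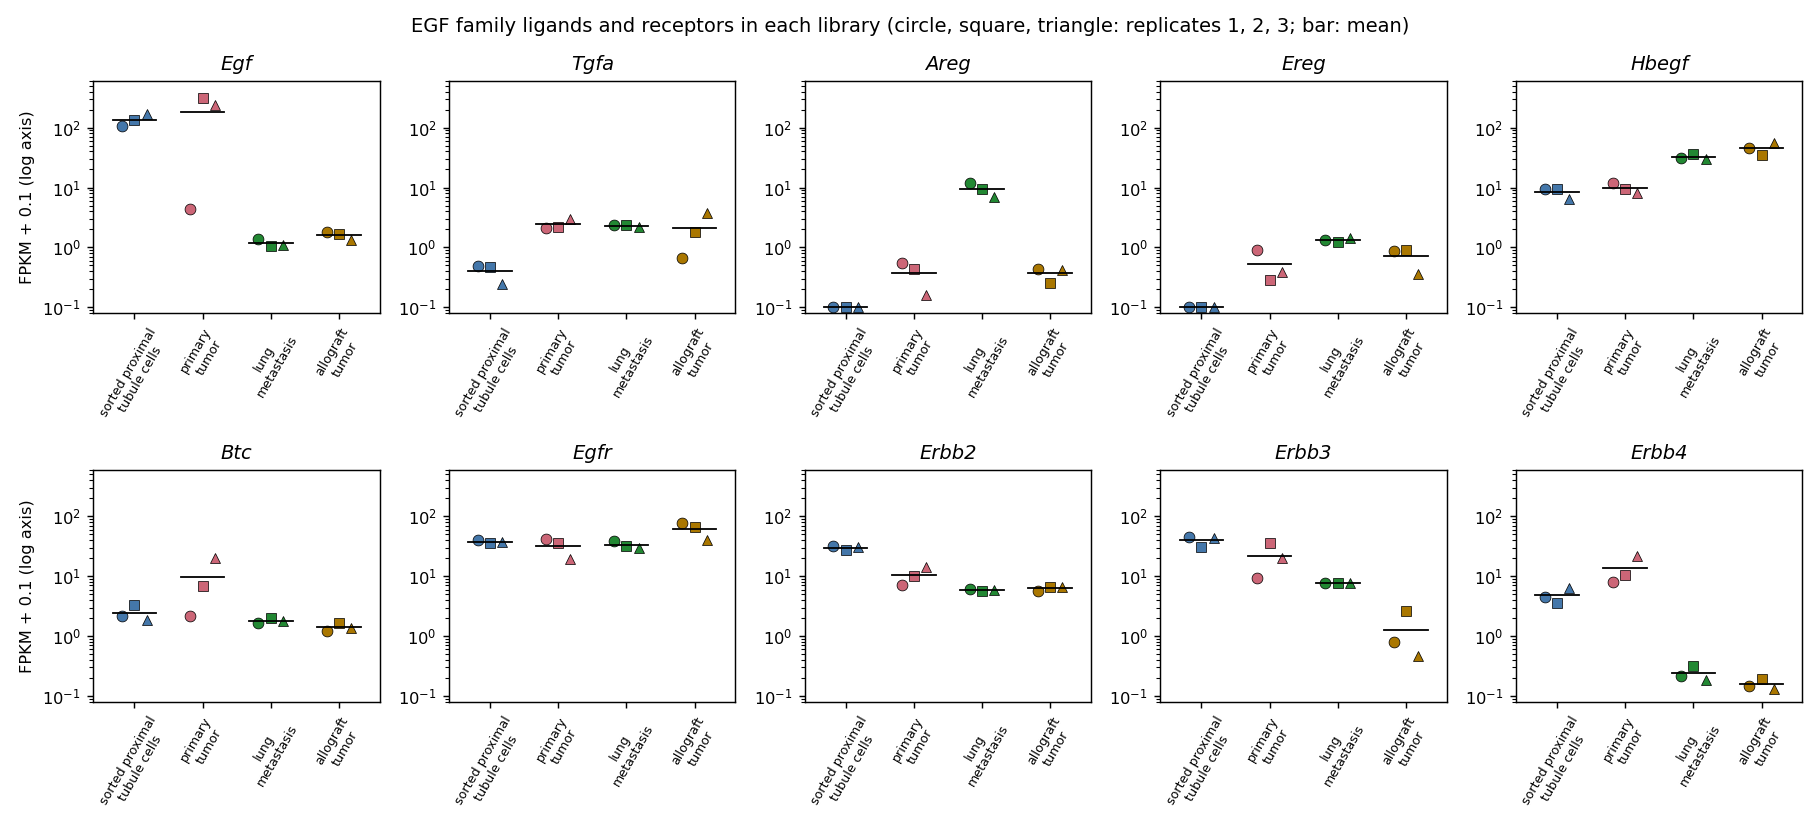
FPKM + 0.1 of the 10 genes on a log axis, 1 panel per gene, with the 12 libraries by group; circle, square and triangle are replicates 1, 2 and 3 and the bar is the mean. Egf is high in sorted cells and in primary tumors 2 and 3, Hbegf in metastases and allografts, Areg in metastases, and Erbb4 in sorted cells and primary tumors.

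The ligand that dominated the sorted cells and the one that dominated the metastases and allografts were different genes. Egf, the ligand that names the family (chr3:129677565-129755316, minus strand, GRCm38), was listed at 107, 134 and 168 FPKM in the sorted cells, 4.25, 310 and 239 in primary tumors 1 to 3, 1.30, 0.948 and 1.00 in lung metastases, and 1.73, 1.55 and 1.24 in allografts. The metastases and allografts lay below every sorted-cell and primary-tumor library, and primary tumor 1 stood apart from the other two. Against sorted cells Egf fell by 6.02 ± 1.19 in metastases (adjusted p = 0.00117; -6.70 relative to all genes) and fell by 5.76 ± 1.19 in allografts (adjusted p = 0.00144; -6.41 relative to all genes), and both calls held in every alternative run. In primary tumors the change was -0.88 ± 1.19 (95% interval -3.53 to 1.76, adjusted p = 0.548). Without primary tumor 1 it was 1.02 (adjusted p = 0.00321), and with primary tumor 1 as the only primary tumor it was -4.68, a value given without a test because that arm is 1 library. The sign of the change thus differed with and without that library. Metastases were 5.14 ± 1.19 lower than primary tumors (log2 change -5.14, adjusted p = 0.0147), a call lost without primary tumor 2 (-4.10, adjusted p = 0.0515), primary tumor 3 (-4.28, 0.0630) or metastasis 2 (-5.09, 0.0515). Allografts against primary tumors gave -4.87 ± 1.19 (adjusted p = 0.00867). Fitted with only the 2 groups compared, neither call held (adjusted p = 0.106 for metastases and 0.0714 for allografts). The allograft value was smaller in size with primary tumor 1 as the only primary tumor (-1.07), as was that of metastases (-1.34).

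Most markers of the tubule segments that are known to make Egf were also low in metastases and allografts. The 8 genes of the thick limb and distal tubule, of which Umod (uromodulin) and Slc12a1 (the sodium-potassium-chloride transporter of the thick limb) were the most abundant, summed to 291, 463 and 523 FPKM in the sorted cells and to 320, 1967 and 3710 in primary tumors. In metastases they summed to 9.81 to 10.8 and in the allografts to 11.6 to 30.2. Against sorted cells 7 of the 8 were called lower in metastases and 6 in allografts, beside 14.4% and 16.9% of all genes. In each group 1 was called higher. Trpm6 went the other way, at 1.70 FPKM on average in sorted cells, 9.24 in primary tumors, 9.83 in metastases and 7.26 in allografts. Trpm6 made up most of the metastasis sums, and Pvalb (23.2 FPKM) most of the 30.2 in allograft 1. In metastases 6 of the 8 genes, Umod and Slc12a1 included, were under 0.1 FPKM in all 3 libraries. The sorted cells, labelled proximal tubule, thus held transcripts of other segments, with Umod at 159 to 271 FPKM beside a sum of 4842 to 5767 for 8 proximal tubule markers. The low sums were not particular to the thick limb and distal tubule. Proximal tubule markers summed to 175 to 221 FPKM in metastases and 37.5 to 108 in allografts. The 7 collecting duct genes summed to 94.2 to 118 in sorted cells, 21.7 to 28 in metastases and 1.65 to 3.01 in allografts. Of these, Scnn1g was higher in metastases (22.9 on average) than in sorted cells (8.27). Per FPKM of Umod, Egf was 0.671, 0.508 and 0.620 in sorted cells and 0.0204, 0.272 and 0.105 in primary tumors 1 to 3. Per FPKM of Slc12a1 it was 2.39, 1.77 and 1.86 against 0.0947, 0.907 and 0.220. On these 2 ratios every primary tumor lay below every sorted-cell library. Per FPKM of Slc12a3, the sodium-chloride transporter of the distal convoluted tubule, it was 3.70, 2.89 and 2.60 in sorted cells and 0.159, 2.14 and 5.79 in primary tumors 1 to 3, so that primary tumor 3 lay above every sorted-cell library. The ratios do not depend on the scaling of a library, and they differed with the segment gene chosen. Primary tumor 1 had Umod at 209 FPKM, within the sorted cells' range, and Egf at 4.25. In bulk RNA, fewer cells of a type and less RNA per cell cannot be told apart, and the part of the segments' shares in the Egf change was not tested. The 3 genes with profiles over the 12 libraries nearest to that of Egf (smallest root mean square difference of centred log2 values among genes with a mean of at least 5 FPKM) were Slc22a2 (0.45), Calb1 (0.46) and Slc17a3 (0.49).

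The Egf promoter is shown because this ligand had the largest changes of the 8 genes with a fold against sorted cells in metastases and allografts. The table of RefSeq promoters (GRCm38.p6, 250 bases before to 50 after a start) held 7 of the 10 genes. The first Egf start lies in chr3:129755273-129755572, minus strand. The window has a GC content of 49.0% and 0 CpG, where the median over 32851 promoters was 52.7% and 7. A second Egf window, at chr3:129725037-129725336, has 52.3% and 17 CpG. Neither window holds any of the letters searched for on both strands, which were GGAATG (TEAD), TGANTCA (AP-1) and TGACGTCA (cyclic AMP response element), and the HNF1 motif, found in 14.7%, 7.81%, 1.79% and 0.00913% of all promoters.
Egf: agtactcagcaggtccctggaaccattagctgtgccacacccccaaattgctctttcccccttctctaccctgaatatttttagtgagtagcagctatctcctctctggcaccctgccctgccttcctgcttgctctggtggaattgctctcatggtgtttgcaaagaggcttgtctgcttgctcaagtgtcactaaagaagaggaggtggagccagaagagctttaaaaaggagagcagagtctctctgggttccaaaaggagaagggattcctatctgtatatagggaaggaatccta

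Heparin-binding EGF, which was a minor ligand transcript in the sorted cells, was the most abundant of the 6 ligands in every metastasis and allograft. The neuregulin gene Nrg1, described further on, was above it in 5 of these 6 libraries. Hbegf (chr18:36504927-36515805, minus strand) was listed at 9.37, 9.44 and 6.36 FPKM in sorted cells, 12, 9.18 and 8.03 in primary tumors, 30.8, 35.8 and 30.2 in metastases, and 45.1, 35.2 and 55.4 in allografts. Sorted cells and primary tumors overlapped, metastases and allografts overlapped, and no library of the first pair of groups reached the second. Hbegf rose by 1.84 ± 0.21 in metastases (adjusted p = 4.25e-05; 1.16 relative to all genes) and by 2.30 ± 0.21 in allografts (adjusted p = 1.13e-05; 1.64 relative to all genes) against sorted cells. Against primary tumors it rose by 1.64 ± 0.21 (adjusted p = 5.64e-04) and 2.10 ± 0.21 (adjusted p = 1.37e-04). These 4 calls held in every alternative run. Primary tumors differed from sorted cells by 0.20 ± 0.21 (95% interval -0.28 to 0.67, adjusted p = 0.457), and the sign of that change turned under all 4 other scalings, to -0.79 (adjusted p = 0.0169) after rescaling to TPM. Allografts and metastases differed by 0.46 ± 0.21 (95% interval -0.02 to 0.93, adjusted p = 0.154).

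Macrophages are known to make Hbegf, and their markers were read beside it. The 7 macrophage genes, led by C1qa and C1qc of the complement C1q complex, summed to 7.2 to 8.22 FPKM in sorted cells, 1528, 208 and 249 in primary tumors 1 to 3, 959 to 1391 in metastases and 1124 to 4255 in allografts. All 7 were called higher in each tumor group against sorted cells, beside 48.2%, 54.0% and 52.2% of all genes. Primary tumor 1 had a higher macrophage sum than any metastasis and 12 FPKM of Hbegf, below the 30.2 of the lowest metastasis. Among the allografts the library with the lowest macrophage sum had the highest Hbegf, 55.4 FPKM. The 6 fibroblast genes, Col3a1 and Dcn foremost, summed to at most 4.08 FPKM in sorted cells, 130 to 753 in primary tumors, 352 to 451 in metastases and 725 to 1940 in allografts; the part of macrophages and fibroblasts in the Hbegf change was not tested. The nearest profiles were those of Ybx3 (0.25), Kctd5 (0.28) and Sdf2l1 (0.29).

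**Figure D2:**
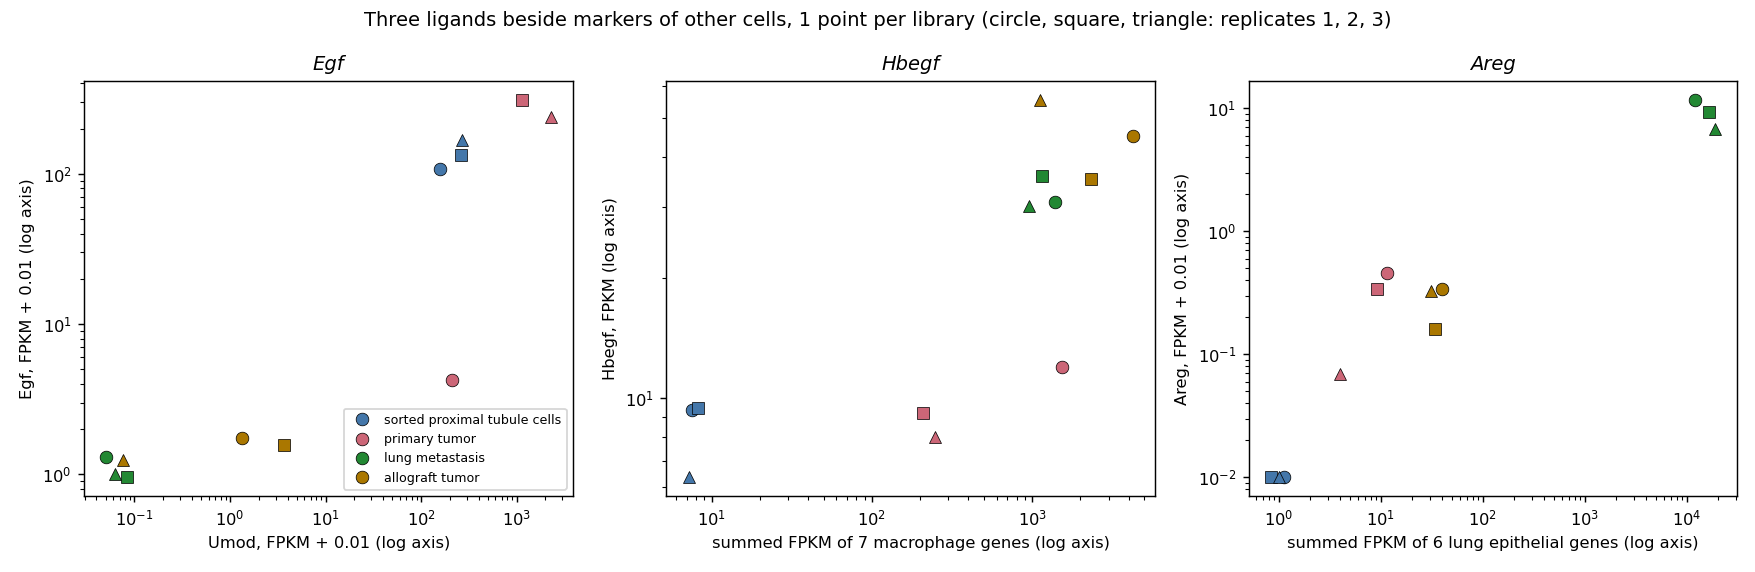
Egf against Umod, Hbegf against the summed FPKM of 7 macrophage genes, and Areg against the summed FPKM of 6 lung epithelial genes, 1 point per library on log axes. Primary tumor 1 (pink circle) has Umod within the sorted cells' range and far less Egf, and Hbegf of 12 FPKM at a macrophage sum above that of any metastasis; Areg is above 6 FPKM only in the metastases.

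Amphiregulin was detected at more than 1 FPKM in the lung metastases only. Areg (chr5:91139599-91148432, plus strand) was listed at 0 in all 3 sorted-cell libraries, at 0.447, 0.332 and 0.0590 FPKM in primary tumors, at 11.7, 9.40 and 6.75 in metastases, and at 0.329, 0.152 and 0.319 in allografts. Every metastasis stood above every other library, and primary tumors and allografts overlapped. Areg was called higher in metastases than in sorted cells (adjusted p = 7.02e-07, with no fold against a group listed at 0), and rose by 2.99 ± 0.19 against primary tumors (adjusted p = 4.46e-06). Allografts were lower than metastases by 3.00 ± 0.19 (log2 change -3.00, adjusted p = 4.16e-06). These 3 calls held in every alternative run. Areg was tested only because the metastases passed the filter on low values, so the calls were partly built in. In primary tumors and in allografts Areg was not called against sorted cells (adjusted p = 0.152 and 0.137), although with a pseudocount of 0.1 both passed (0.00992 and 0.00511). The Areg transcript has 1215 bases, so 1 fragment on it equals more than the 0.0807 to 0.107 FPKM given for 2 kb in sorted cells. Levels like those of primary tumors and allografts would be few fragments in a sorted-cell library.

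Transcripts of lung epithelium were abundant in the metastasis libraries, and most of them were, like Areg, highest there. The 6 lung epithelial genes, led by Scgb1a1 of club cells and Sftpc of alveolar type II cells, summed to 11890, 16492 and 18982 FPKM in metastases 1 to 3, at most 11.4 in primary tumors, 31.3 to 40.0 in allografts and at most 1.11 in sorted cells. All 6 were called higher in metastases against sorted cells and against primary tumors, beside 54.0% and 11.3% of all genes. In allografts 5 of the 6 were called lower than in metastases, beside 13.3% of all genes. Foxj1 did not follow Areg, at 37.5, 30.4 and 21.7 FPKM in allografts and 18, 33.4 and 31.3 in metastases. It made up most of the allograft sums. Within the metastases the order was opposite, since Areg was 11.7 FPKM in the library with the lowest lung sum and 6.75 in that with the highest, and 3 libraries allow no test of that order. Without normal lung among the groups, lung tissue and tumor cells cannot be told apart as the source of Areg. The 11 immediate early genes, Fos and Jun foremost, which can rise while tissue is handled, summed to 582 to 1460 FPKM in sorted cells, 114 to 198 in primary tumors, 233 to 486 in metastases and 186 to 413 in allografts. Of these 11, 5 were called higher in metastases than in primary tumors, beside 11.3% of all genes. Against sorted cells 1 was called higher and 5 lower in metastases, beside 54.0% and 14.4% of all genes. Their part in the Areg change was not tested. The nearest profiles to that of Areg were Akap5 (0.43), Fam189a2 (0.45) and Cox4i2 (0.46), each of which was at least 16.2 FPKM on average in metastases and at most 2.26 in the other groups.

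The Areg promoter is shown because this ligand was called in metastases against all 3 other groups, calls that were partly built in by the filter. The 300 bases at chr5:91139349-91139648, plus strand, have a GC content of 59.3% and 21 CpG. They hold 1 match to the letters TGACGTCA, in capitals, starting at base 190 counted from 1 at the 5′ end. Among all promoters of the RefSeq set, 1.79% hold these letters, and the match is a description of the sequence only.
Areg: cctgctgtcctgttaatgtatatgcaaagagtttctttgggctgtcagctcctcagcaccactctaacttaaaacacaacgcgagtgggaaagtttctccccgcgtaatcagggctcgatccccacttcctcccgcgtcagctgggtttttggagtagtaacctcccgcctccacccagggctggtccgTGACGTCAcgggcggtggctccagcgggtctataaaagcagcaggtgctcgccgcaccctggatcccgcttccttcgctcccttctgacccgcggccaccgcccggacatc

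Epiregulin, a ligand whose gene is a neighbour of Areg, was low everywhere. Ereg (chr5:91074622-91093646, plus strand) was listed at 0 in the 3 sorted-cell libraries, at 0.805, 0.182 and 0.293 FPKM in primary tumors, at 1.22, 1.15 and 1.36 in metastases, and at 0.764, 0.795 and 0.258 in allografts. The metastases lay above all other libraries, and primary tumors overlapped with allografts. Like Areg, this gene passed the filter through the metastases alone, so its calls in them were partly built in. Ereg was called higher against sorted cells in metastases (adjusted p = 3.11e-04), in allografts (adjusted p = 0.00875) and narrowly in primary tumors (adjusted p = 0.0482), with no fold against a group listed at 0. The last call was lost in 11 alternatives and turned to -0.14 with quantile normalization. It was lost without any 1 of the sorted-cell libraries (adjusted p up to 0.104), without primary tumor 1 (0.173) and without primary tumor 3 (0.0565). With quantile normalization the calls in metastases and allografts were lost as well (0.0513 and 0.0904). Metastases exceeded primary tumors by 0.68 ± 0.19 (adjusted p = 0.0303), a call that was lost without primary tumor 2 (0.102), primary tumor 3 (0.0995) or any 1 of metastases 1 to 3 (0.0700, 0.0782 and 0.0926). Allografts against metastases gave -0.50 ± 0.19 (adjusted p = 0.0794). Among the genes nearest to Ereg by profile were Zswim6 (0.13) and Wwtr1 (0.15), and Wwtr1, which encodes TAZ, was 19.2 FPKM in sorted cells, 29.5 in primary tumors, 44.9 in metastases and 29.8 in allografts on average.

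Transforming growth factor alpha was low in sorted cells and several FPKM at most in tumors. Tgfa (chr6:86195223-86275719, plus strand) was listed at 0.386, 0.375 and 0.144 FPKM in sorted cells, 2.02, 2.09 and 2.92 in primary tumors, 2.23, 2.25 and 2.07 in metastases, and 0.578, 1.70 and 3.72 in allografts. Every tumor library was above every sorted-cell library, the 3 tumor groups overlapped, and the allografts varied most. Tgfa rose by 1.35 ± 0.32 in primary tumors (adjusted p = 0.00510; 0.77 relative to all genes), by 1.30 ± 0.32 in metastases (0.00421; 0.62) and by 1.07 ± 0.32 in allografts (0.0117; 0.41), except with quantile normalization, where the changes were 0.06, -0.02 and 0.14 and none was called. In allografts the call was also lost after rescaling to TPM (0.48, adjusted p = 0.139) and after leaving out the 50 most abundant genes (0.80, adjusted p = 0.0572). Between the tumor groups Tgfa was not called in any comparison, with intervals of -0.76 to 0.65 for metastases against primary tumors, -0.99 to 0.42 for allografts against primary tumors and -0.93 to 0.48 for allografts against metastases.

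Betacellulin varied chiefly among the primary tumors. Btc (chr5:91357261-91402994, minus strand) was listed at 2.07, 3.17 and 1.78 FPKM in sorted cells, 2.08, 6.82 and 19.8 in primary tumors 1 to 3, 1.58, 1.88 and 1.70 in metastases, and 1.10, 1.53 and 1.29 in allografts. Primary tumors 2 and 3 were above all other libraries, and primary tumor 1 lay among the sorted cells. The change in primary tumors against sorted cells was 1.27 ± 0.52 (adjusted p = 0.0606), and without primary tumor 1 it was 1.96 (adjusted p = 0.00147). With primary tumor 1 as the only primary tumor it was -0.09, without a test. Against sorted cells Btc was not called in metastases (-0.28 ± 0.52, interval -1.43 to 0.88) or allografts (-0.52 ± 0.52, interval -1.67 to 0.64), but after rescaling to TPM it was called lower in allografts (-1.30, adjusted p = 0.0426). Allografts were lower than primary tumors (-1.79 ± 0.52, adjusted p = 0.0193), a call lost without allograft 1 (-1.73, adjusted p = 0.0575), with quantile normalization (-1.60, 0.0505) and with only the 2 groups fitted (0.105). With primary tumor 1 as the only primary tumor the difference was -0.42. Metastases against primary tumors gave -1.55 ± 0.52 (adjusted p = 0.0581; without primary tumor 1, -2.23 and 7.41e-04). The 7 collecting duct genes, Aqp2 and Aqp3 foremost, summed to 39.8, 392 and 1259 FPKM in primary tumors 1 to 3, the same order as Btc. The thick limb and distal sums had that order too (320, 1967 and 3710), while Atp6v1g3 of the collecting duct list did not (13, 29.3 and 26.6). Collecting duct genes summed to 94.2 to 118 in sorted cells, above primary tumor 1, whose Btc lay within the sorted cells' range. The part of these segments in the Btc values was not tested.

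As shares of the summed FPKM of the 6 ligands, which do not depend on the scaling of a library, Egf made up 92.2% ± 2.77 of the ligand transcripts in sorted cells, 2.27% ± 0.407 in metastases and 3.09% ± 0.956 in allografts (SD, n = 3). Hbegf made up 5.97% ± 2.18, 67.6% ± 3.92 and 88.7% ± 2.47 in the same groups. Primary tumors 2 and 3 resembled the sorted cells, with 94.3% and 88.5% Egf, whereas primary tumor 1 had 19.7% Egf and 55.6% Hbegf. Areg made up 24.0%, 18.3% and 15.7% in the metastases and at most 2.06% elsewhere. The sum itself was 147 ± 28.8 FPKM in sorted cells, 21.6, 328 and 271 in primary tumors 1 to 3, 47.8 ± 4.26 in metastases and 50.9 ± 10.7 in allografts. The shares are given without a test, since an exact permutation test of 3 against 3 cannot go below p = 0.1.

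**Figure D3:**
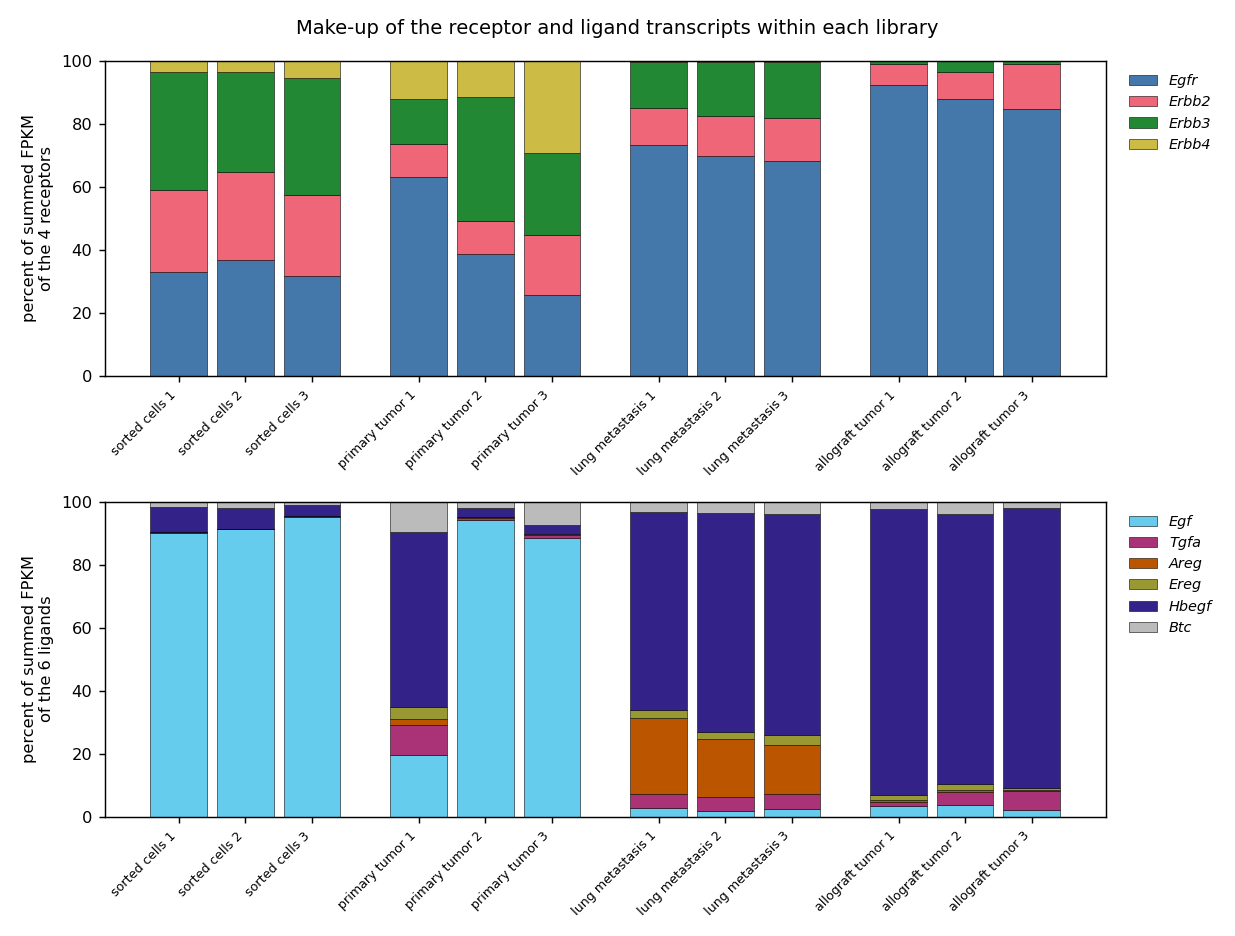
Share in percent of each receptor in the summed FPKM of the 4 receptors (top) and of each ligand in that of the 6 ligands (bottom), 1 bar per library. Egfr makes up 31.8% to 36.9% of the receptor transcripts in sorted cells and 84.9% to 92.4% in allografts, and Egf gives way to Hbegf in primary tumor 1, the metastases and the allografts.

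Among the receptors, Erbb2 was called lower in all 3 tumor groups against sorted cells, Erbb3 and Erbb4 in metastases and allografts, and Egfr in none. Egfr (chr11:16752203-16918158, plus strand), the receptor shared by all 6 ligands, was listed at 40.0, 35.6 and 37.5 FPKM in sorted cells, 41.6, 35.7 and 19.3 in primary tumors, 38.5, 31.5 and 29.2 in metastases, and 77.3, 67.2 and 39.5 in allografts. The first 3 groups overlapped, and allografts 1 and 2 were above all other libraries. The change against sorted cells was -0.29 ± 0.30 in primary tumors (adjusted p = 0.436), -0.19 ± 0.30 in metastases (adjusted p = 0.580) and 0.63 ± 0.30 in allografts (95% interval -0.03 to 1.30, adjusted p = 0.0812). Relative to all genes these were -0.87, -0.87 and -0.02. The first 2 passed the test as lower after rescaling to TPM (-1.36 and -1.23, adjusted p = 0.00668 and 0.00707) and after median-of-ratios scaling (-0.92 and -0.78, adjusted p = 0.0260 and 0.0343). In allografts the change turned to -0.76 after rescaling to TPM and was 0.92 (adjusted p = 0.0162) without allograft 3, and in primary tumors it was 0.03 without primary tumor 3. Allografts exceeded primary tumors by 0.92 ± 0.30 (adjusted p = 0.0312), with overlapping libraries, and the call was lost without primary tumor 3 (0.60, adjusted p = 0.110), allograft 1 (0.73, 0.110) or allograft 2 (0.83, 0.0877). It was also lost after rescaling to TPM (0.61, 0.181), after leaving out the 50 most abundant genes (0.60, 0.0985) and with only the 2 groups fitted (0.140). Allografts against metastases gave 0.83 ± 0.30 (adjusted p = 0.0715; without allograft 3, 1.11 and 0.0214). Profiles nearest to that of Egfr were Umps (0.23), Adsl (0.24) and Trmt1 (0.24).

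Erbb2 (chr11:98412470-98437716, plus strand), the partner receptor without a ligand of its own, was listed at 31.3, 26.9 and 30.2 FPKM in sorted cells, 7.01, 9.90 and 14.1 in primary tumors, 6.13, 5.67 and 5.78 in metastases, and 5.65, 6.54 and 6.62 in allografts. No tumor library came near the sorted cells, and the primary tumors lay above the other two tumor groups. Erbb2 fell by 1.47 ± 0.21 in primary tumors (adjusted p = 2.71e-04), by 2.15 ± 0.21 in metastases (adjusted p = 1.30e-05) and by 2.07 ± 0.21 in allografts (adjusted p = 1.51e-05), or -2.06, -2.83 and -2.73 relative to all genes. These calls held in every alternative run, and among all genes 4.90%, 14.4% and 16.9% were called lower in these comparisons. Metastases (-0.68 ± 0.21, adjusted p = 0.0414) and allografts (-0.59 ± 0.21, adjusted p = 0.0394) were narrowly lower than primary tumors. Both calls were lost in several alternatives, among them the fits without primary tumor 3 (-0.45, adjusted p = 0.129, and -0.36, adjusted p = 0.134) and without primary tumor 2 (0.0913 and 0.0712). They were also lost without any 1 of metastases 1 to 3 (0.0919, 0.122 and 0.112) or any 1 of allografts 1 to 3 (0.107, 0.0678 and 0.0568). Per FPKM of Egfr, Erbb2 was 0.783, 0.755 and 0.806 in sorted cells, 0.168, 0.278 and 0.729 in primary tumors, 0.159 to 0.198 in metastases and 0.0731 to 0.168 in allografts. The closest profiles were those of Eif4ebp2 (0.18), Nfic (0.19) and Sufu (0.19).

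The Erbb2 promoter is shown because this receptor was called in the same direction in every tumor group. The window at chr11:98412234-98412533, plus strand, has a GC content of 66%. It holds 1 match to the letters GGAATG of the TEAD motif, in capitals, starting at base 163 from the 5′ end, as do 14.7% of all promoters in the table. None of the 4 letter strings was found in the windows of Tgfa, Btc, Egfr and Erbb4.
Erbb2: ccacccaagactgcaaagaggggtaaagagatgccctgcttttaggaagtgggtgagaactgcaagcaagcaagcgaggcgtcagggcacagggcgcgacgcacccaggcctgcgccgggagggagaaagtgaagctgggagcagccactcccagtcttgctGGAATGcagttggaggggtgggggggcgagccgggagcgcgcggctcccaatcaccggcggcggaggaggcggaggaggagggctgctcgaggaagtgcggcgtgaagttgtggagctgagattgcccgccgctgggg

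Erbb3 (chr10:128567523-128589652, minus strand), the receptor of neuregulins with little kinase activity, was lower in metastases and lower still in allografts. It was listed at 45.2, 30.5 and 44.0 FPKM in sorted cells, 9.41, 36.2 and 19.7 in primary tumors, 7.73, 7.74 and 7.68 in metastases, and 0.689, 2.48 and 0.368 in allografts. Allografts, metastases and the other two groups did not overlap, and primary tumor 2 lay within the sorted cells' range. Erbb3 fell by 2.21 ± 0.44 in metastases (adjusted p = 0.00127; -2.89 relative to all genes) and by 4.33 ± 0.44 in allografts (adjusted p = 1.77e-05; -4.99 relative to all genes). It was also lower in allografts than in primary tumors (-3.32 ± 0.44, adjusted p = 4.54e-04) and than in metastases (-2.12 ± 0.44, adjusted p = 0.00660). These 4 calls held in every alternative run. In primary tumors against sorted cells the change was -1.01 ± 0.44 (adjusted p = 0.0773), and it passed the test in several alternatives, among them without primary tumor 2 (-1.46, adjusted p = 0.0125) and after median-of-ratios scaling (-1.64, adjusted p = 0.0107). Metastases against primary tumors gave -1.20 ± 0.44 (adjusted p = 0.0795; without primary tumor 1, -1.67 and 0.00669). Per FPKM of Erbb2, Erbb3 was 1.13 to 1.46 in sorted cells, 1.34, 3.66 and 1.39 in primary tumors, 1.26 to 1.36 in metastases, and 0.122, 0.380 and 0.0556 in allografts. That ratio was alike in sorted cells and metastases and below both in every allograft. The nearest profiles were Myo5b (0.29), Map7 (0.35) and Slc44a4 (0.35).

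Erbb4 (chr1:68032186-69108059, minus strand), which binds neuregulins and several EGF-type ligands, went opposite ways in primary tumors and in the other tumors. It was listed at 4.33, 3.46 and 6.25 FPKM in sorted cells, 7.84, 10.5 and 21.9 in primary tumors, 0.113, 0.214 and 0.0879 in metastases, and 0.0450, 0.0916 and 0.0327 in allografts. Sorted cells, primary tumors and the remaining libraries were separate, and metastases overlapped with allografts, all at 0.214 FPKM or less. Erbb4 rose by 1.25 ± 0.31 in primary tumors (adjusted p = 0.00634; 0.67 relative to all genes). It fell by 2.29 ± 0.31 in metastases (adjusted p = 9.90e-05) and by 2.40 ± 0.31 in allografts (adjusted p = 6.33e-05). The rise was lost after rescaling to TPM (0.29, adjusted p = 0.485), median-of-ratios scaling (0.70, adjusted p = 0.0967), quantile normalization (0.51, adjusted p = 0.265) and leaving out the 50 most abundant genes (0.94, adjusted p = 0.0598). With primary tumor 1 as the only primary tumor the change was 0.67, without a test. Both falls held in every alternative run. Metastases and allografts were lower than primary tumors by a log2 change of -3.55 ± 0.31 (adjusted p = 3.57e-05) and -3.65 ± 0.31 (adjusted p = 5.08e-05). Markers of the thick limb and distal tubule were summed above for these libraries, and they were highest in primary tumor 3, which also had the most Erbb4, and under 31 FPKM in every metastasis and allograft; their part in the Erbb4 changes was not tested. Among the nearest profiles to that of Erbb4 were Paqr5 (0.24), Casr (0.34) and Spink8 (0.36).

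Within the receptor transcripts, Egfr thus took a larger share in metastases and allografts without a call of its own against sorted cells. It made up 33.9% ± 2.68 of the summed FPKM of the 4 receptors in sorted cells, 63.2%, 38.6% and 25.8% in primary tumors 1 to 3, 70.5% ± 2.59 in metastases and 88.4% ± 3.75 in allografts. Erbb2 made up 26.5% ± 1.24 in sorted cells, 13.4% ± 4.69 in primary tumors, 12.6% ± 0.916 in metastases and 9.86% ± 3.91 in allografts, and Erbb3 35.4% ± 3.34, 26.6% ± 12.5, 16.6% ± 1.68 and 1.62% ± 1.41. Erbb4 had 4.15% ± 0.992 in sorted cells and 17.5% ± 10.1 in primary tumors, but 0.299% ± 0.153 in metastases and 0.0814% ± 0.0344 in allografts. The summed level was 112 ± 13.3 FPKM in sorted cells, 77.8 ± 13.4 in primary tumors, 46.8 ± 5.08 in metastases and 68.8 ± 19.7 in allografts. Shares show unequal change among the receptors, not which of them changed.

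**Figure D4:**
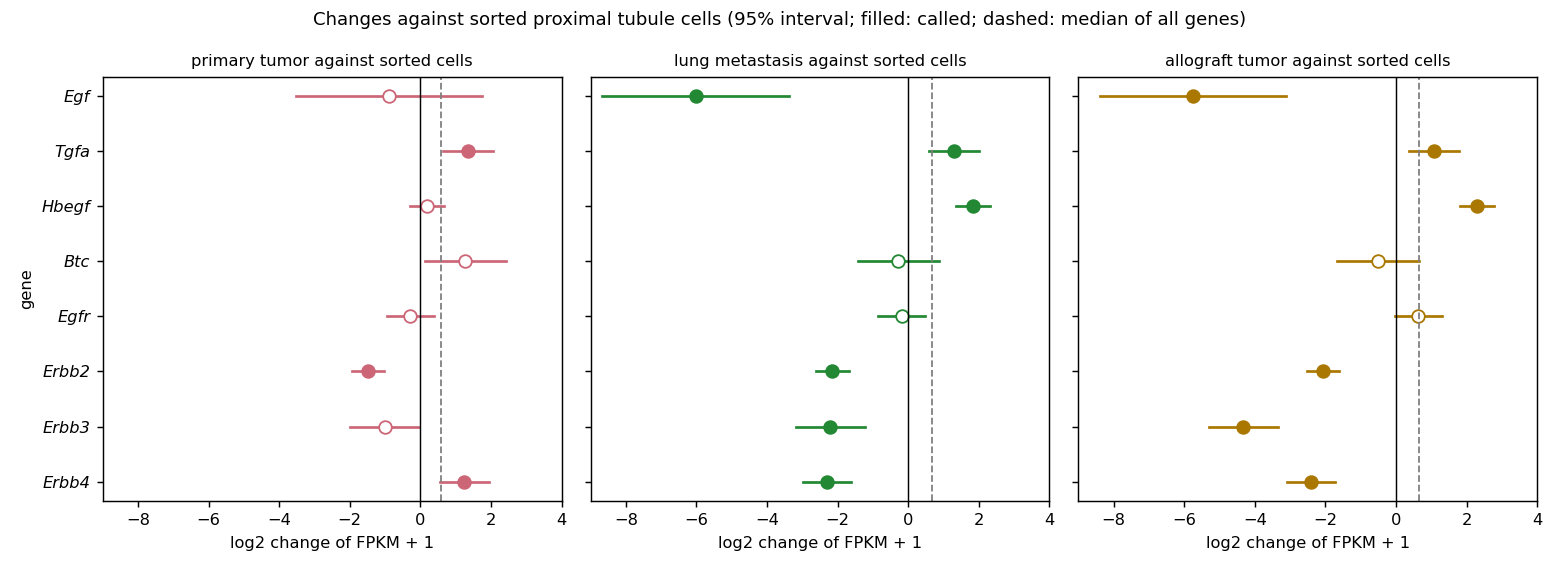
Log2 change of FPKM + 1 against sorted proximal tubule cells with 95% intervals for 8 of the genes in the 3 tumor groups; filled points were called at an adjusted p under 0.05 and the dashed line is the median of all genes. Areg and Ereg are left out because they were listed at 0 in the sorted cells. Erbb2 lies to the left of 0 in all 3 panels and Hbegf to the right of the dashed line in metastases and allografts.

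The tumor groups were also compared with each other. In metastases against primary tumors 3 of 10 were called higher (Areg, Ereg, Hbegf) and 3 lower (Egf, Erbb2, Erbb4), where 20.9% of all genes were called, 11.3% higher and 9.59% lower. After median-of-ratios scaling and after leaving out the 50 most abundant genes the split was 3 and 2. Without single libraries the count of 6 ran from 3 to 8, and it was 3 without primary tumor 2, primary tumor 3 or metastasis 2. In allografts against primary tumors 2 were called higher (Hbegf and Egfr) and 5 lower (Egf, Btc, Erbb2, Erbb3, Erbb4), where 41.6% of all genes were called, 20.5% higher and 21.1% lower. That split was 1 and 5 after rescaling to TPM and after leaving out the 50 most abundant genes, and 3 and 3 after quantile normalization, and the count was 4 without allograft 1. In allografts against metastases 0 were called higher and 2 lower (Areg and Erbb3), where 23.7% of all genes were called, 10.4% higher and 13.3% lower. The share of called members was above that of all genes in the first 2 of these comparisons and near it in the third. In the 2 comparisons with metastases it counts genes that passed the filter through the metastases alone (Areg and Ereg in the first, Areg in the third). There the share was partly built in, and with 10 members no test of it was made.

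Of the ligands of ERBB3 and ERBB4, the neuregulin gene Nrg1 was the most abundant, at 15.2 ± 1.74 FPKM in sorted cells, 18.2 ± 10.3 in primary tumors, 35.9 ± 5.15 in metastases and 55.5 ± 11.8 in allografts. It rose by 1.18 ± 0.32 in metastases (adjusted p = 0.00668) and by 1.79 ± 0.32 in allografts (adjusted p = 5.19e-04), but after rescaling to TPM neither passed (0.16 and 0.41, adjusted p = 0.671 and 0.281), and in metastases no other scaling gave a call (0.61 to 0.78). Nrg2 was listed at 0.0627, 0 and 0 in sorted cells, 11.6, 0.373 and 0.774 in primary tumors, 4.88, 0.713 and 0.615 in metastases, and 6.29, 16.2 and 16.8 in allografts. The allografts were high together and stood above the sorted cells (3.68 ± 0.78, adjusted p = 0.00173), while in the other two tumor groups library 1 was far above the rest. Nrg4 rose by 1.17 ± 0.34 in primary tumors (adjusted p = 0.0146) and by 1.33 ± 0.34 in metastases (adjusted p = 0.00526), but neither passed with quantile normalization (-0.11 and 0.01) or after rescaling to TPM (0.67 and 0.83). Epgn and Nrg3 did not pass the filter on low values.

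The wider pathway was read through 59 genes in 5 lists, of which 57 were tested. Of these 23 were called higher and 2 lower in primary tumors, 37 and 4 in metastases, and 33 and 5 in allografts against sorted cells, beside the shares of all genes given above. Their median change was 0.51, 0.84 and 0.75, beside 0.59, 0.68 and 0.66 for all genes. The split depended on the scaling. After rescaling to TPM it was 1 higher and 21 lower in primary tumors, 8 and 15 in metastases and 7 and 27 in allografts, and after median-of-ratios scaling 5 and 11, 20 and 10, and 22 and 14. With quantile normalization it was 2 and 15, 17 and 9, and 20 and 13, and after leaving out the 50 most abundant genes 7 and 5, 22 and 7, and 19 and 16. The median of all genes moved with the scaling too, to -0.29, -0.18 and -0.37 after rescaling to TPM. Shares of all genes called under these scalings are not given, so the splits are not read as a result about the pathway.

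Of the 6 genes of ligand processing, 3 were called higher in primary tumors, 4 in metastases and 3 in allografts, and none lower, where 48.2%, 54.0% and 52.2% of all genes were called higher and 4.90%, 14.4% and 16.9% lower. These counts are near the share of all genes. Adam17, the protease that releases TGF-alpha, amphiregulin and heparin-binding EGF, was 8.77 ± 1.38 FPKM in sorted cells, 22.9 ± 8.24 in primary tumors, 36.3 ± 2.37 in metastases and 32.8 ± 8.95 in allografts. It rose by 1.25 ± 0.25 (adjusted p = 0.00229), 1.94 ± 0.25 (8.16e-05) and 1.77 ± 0.25 (1.28e-04), of which the rise in primary tumors (0.21, adjusted p = 0.555) and in allografts (0.42, adjusted p = 0.225) was lost after rescaling to TPM, and that in primary tumors also after median-of-ratios scaling and quantile normalization (adjusted p = 0.0604 and 0.0546). Rhbdf2, a partner that carries ADAM17 to the surface, rose by 1.35 ± 0.25 in metastases (adjusted p = 7.81e-04), a call lost after rescaling to TPM (0.42, adjusted p = 0.285).

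Of the 19 genes of ERK feedback and output, 5 were called higher and 2 lower in primary tumors, 13 and 2 in metastases, and 12 and 3 in allografts, beside 48.2%, 54.0% and 52.2% of all genes called higher and 4.90%, 14.4% and 16.9% lower. Epha2, a receptor gene induced by ERK signaling, was 1.80 ± 0.473 FPKM (SD, n = 3) in sorted cells, 14.2, 2.56 and 5.27 in primary tumors, 27.0, 27.1 and 25.8 in metastases, and 32.3, 21.0 and 21.8 in allografts. All metastases and allografts were above every primary tumor and sorted-cell library, and Epha2 rose by 3.32 ± 0.42 (adjusted p = 7.02e-05) and 3.20 ± 0.42 (adjusted p = 7.44e-05). Etv4, a transcription factor of the PEA3 group, was 1.36 ± 1.20 FPKM in sorted cells, 2.56 ± 1.39 in primary tumors, 4.71 ± 0.668 in metastases and 17.9 ± 2.92 in allografts, and rose by 3.13 ± 0.38 in allografts (adjusted p = 4.30e-05). Spry1, an inhibitor of receptor signaling to RAS, rose by 2.16 ± 0.29 in primary tumors (adjusted p = 2.39e-04). Its level was 3.71 ± 1.69 FPKM in sorted cells, 19.8 ± 6.3 in primary tumors, 27.9 ± 0.714 in metastases and 30.6 ± 6.19 in allografts. The members called lower were Spred2 and Myc in primary tumors, Spred2 and Etv1 in metastases, and Spred2, Etv1 and Spry2 in allografts, and they are named because they were few, after their values were seen. Spred2, an inhibitor of RAF activation, fell by 1.32 ± 0.22, 1.95 ± 0.22 and 1.79 ± 0.22 in the 3 tumor groups (adjusted p = 7.76e-04, 3.48e-05 and 4.94e-05). The Myc call (-1.25 ± 0.46, adjusted p = 0.0416) was lost in several alternatives, among them without sorted-cell library 1 (0.115) or 2 (0.117) and without primary tumor 2 (0.133) or 3 (0.0860). The immediate early genes, summed above, were also higher in sorted cells than in primary tumors, and their part in the Myc change was not tested.

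Of the 11 genes that restrain the receptors, 5 were called higher and 0 lower in primary tumors, and 6 higher and 1 lower in both metastases and allografts, near the 48.2%, 54.0% and 52.2% of all genes called higher. Errfi1, which encodes an inhibitor that binds the EGFR kinase, was the most abundant of them and the 1 called lower. It was listed at 255, 195 and 181 FPKM in sorted cells, 73.7, 313 and 84.7 in primary tumors, 66.4, 78.2 and 82.5 in metastases, and 60.1, 56.2 and 69.7 in allografts. All metastases and allografts lay below the sorted cells, and primary tumor 2 above them. Errfi1 fell by 1.45 ± 0.44 in metastases (adjusted p = 0.0134) and by 1.74 ± 0.44 in allografts (adjusted p = 0.00501). The 11 immediate early genes also summed higher in sorted cells (582 to 1460 FPKM) than in metastases (233 to 486) and allografts (186 to 413). Of them, 5 and 8 were called lower in these groups, beside 14.4% and 16.9% of all genes, and 1 was called higher in each. Their part in the Errfi1 change was not tested. Socs3, a suppressor of cytokine signaling, was 4.94 FPKM on average in sorted cells and 52.0 ± 4.20 in metastases and rose by 3.17 ± 0.54 there (adjusted p = 4.64e-04), and by 2.70 ± 0.54 in allografts (adjusted p = 0.00117), where the call was lost after rescaling to TPM (1.39, adjusted p = 0.0503). Rnf41, an E3 ligase gene described for the degradation of ERBB3, rose by 1.61 ± 0.20 in metastases and 1.78 ± 0.20 in allografts (adjusted p = 5.62e-05 and 2.68e-05), but after rescaling to TPM neither passed (0.0663 and 0.170).

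Of the 18 adaptors, RAS proteins and kinases, 9 were called higher and 0 lower in primary tumors, 12 and 1 in metastases, and 9 and 1 in allografts, against 48.2%, 54.0% and 52.2% of all genes called higher. Nras was 9.5 ± 1.63 FPKM in sorted cells, 21.7 ± 9.13 in primary tumors, 38.4 ± 2.03 in metastases and 50.4 ± 9.69 in allografts. It rose by 1.92 ± 0.25 in metastases (adjusted p = 8.90e-05) and by 2.29 ± 0.25 in allografts (adjusted p = 2.62e-05), whereas the rise of 1.05 ± 0.25 in primary tumors (adjusted p = 0.00578) was called under none of the 4 other scalings (0.02 to 0.70). The single members called lower were Sos1 in metastases (-0.70 ± 0.22, adjusted p = 0.0144) and Gab1, an adaptor that EGFR phosphorylates, in allografts (-1.10 ± 0.21, adjusted p = 7.35e-04).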

How the data were processed

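The deposited table holds FPKM per gene, a unit named by the authors. The submitters' processing notes list bcl2fastq 2.17.1.14, Salmon, GRCm38 and mm10; strandedness and gene lengths were not stated. Identifiers were matched to symbols and coordinates in GENCODE M21 (24189 of 24432 had a symbol). A gene was kept where 3 or more libraries reached 1 FPKM (16313 genes). With limma 3.58.1 in R 4.3.3, log2(FPKM + 1) of all 4 groups was fitted in a single model (trended variance prior, no covariate) and 6 contrasts were tested, each with Benjamini-Hochberg adjustment over all genes. The script was tested on simulated data. Depth was estimated from steps between low values, counting a value as whole within 0.05 fragment. Shares, ratios and marker sums were computed per library. The naming rule took all 10 members, per pathway list the 2 called genes with the largest change in each comparison against sorted cells and the most abundant gene, per marker list the 2 most abundant genes, and per member the 3 nearest profiles; not all are printed. The members and lists were chosen with earlier results of these data known. Alternatives comprised other pseudocounts (0.1, 5), filters (none, 5 FPKM) and 4 scalings, a fit of only the 2 groups, robust variances, array weights, a replicate block, and fits without each library or without primary tumors 2 and 3. Lists of lymphocyte, mast cell, endothelial, urothelial and mesothelial genes were summed too.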

Additional observations from a re-analysis of the deposited data

Results flagged for a closer look

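Listed here are the 3 genes whose change against sorted cells had opposite signs in 2 tumor groups that also differed in the direct test; other members differed between tumor groups with the same sign. Erbb4 changed by 1.25 in primary tumors and by -2.29 in metastases and -2.40 in allografts, and the differences were -3.55 (adjusted p = 3.57e-05, limma) and -3.65 (adjusted p = 5.08e-05). The rise of 1.25 was called under none of the 4 other scalings. Btc changed by 1.27 in primary tumors and by -0.52 in allografts, with a difference of -1.79 (adjusted p = 0.0193; lost with quantile normalization, 0.0505), and neither change was called by itself. Egfr changed by -0.29 in primary tumors and 0.63 in allografts, with a difference of 0.92 (adjusted p = 0.0312; lost after rescaling to TPM, 0.61 and 0.181), and again neither change was called by itself. The opposite signs of Egfr depended on the scaling. Relative to all genes the changes were -0.87 and -0.02, and after rescaling to TPM -1.36 and -0.76. Single libraries were not tested as outliers, since every group held 3.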

How the results depend on the processing

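Of 50 results for single family genes, 21 kept direction and side of the threshold in every alternative, and 34 were called, of which 20 did so. The count of called genes in primary tumors against sorted cells (4) was 2 with a filter at 5 FPKM, 2 with quantile normalization and 7 with array weights, and 3 to 5 without single libraries. In metastases against primary tumors (6) it was 3 with only the 2 groups, and 3 to 8 without single libraries; in allografts against primary tumors (7) it was 3 with only the 2 groups, 4 without primary tumors 2 and 3, and 4 to 7 without single libraries; in allografts against metastases (2) it was 4 with array weights and 2 to 3 without single libraries. Called pathway genes in metastases against primary tumors (14) ran from 6 to 24 without single libraries. The array weights were fitted with a convergence warning and are less certain. Fits with 1 library in an arm take the spread from the other groups. The cause of these moves was not tested, except that fewer libraries or genes entered some fits.

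Directions that turned in primary tumors against sorted cells were those of Hbegf (-0.79 after rescaling to TPM, -0.39 after median-of-ratios scaling, -0.48 with quantile normalization, -0.15 without the 50 most abundant genes, -0.03 with array weights), Areg (-0.22), Ereg (-0.14) and Nrg4 (-0.11) with quantile normalization, Adam10 (-0.40 after rescaling to TPM), Egf (0.56 with array weights, 1.02 without primary tumor 1, with a range of -1.93 to 1.02 without single libraries), Egfr (0.03 without primary tumor 3, with a range of -0.50 to 0.03 without single libraries, 0.14 without primary tumors 2 and 3) and Btc (-0.09 without primary tumors 2 and 3). In metastases Tgfa turned to -0.02 with quantile normalization. In allografts Egfr turned to -0.76 after rescaling to TPM, -0.00 after median-of-ratios scaling and -0.07 without the 50 most abundant genes, and Rhbdf2 to -0.43 after rescaling to TPM. Btc in allografts against metastases turned to 0.13 with quantile normalization.

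Replicate numbers are shared between groups, but same-numbered libraries did not deviate together (correlations -0.04 to 0.10 over 18 pairs, against -0.23 to 0.13 over 36 other pairs). With the replicate block the called counts were 3, 8 and 8 against sorted cells, 6 and 7 against primary tumors and 3 for allografts against metastases. The block added Egfr in allografts against sorted cells (0.63, adjusted p = 0.0287) and against metastases (0.83, adjusted p = 0.0279), and lost Ereg in primary tumors (0.49, adjusted p = 0.0566) and Myc (-1.25, adjusted p = 0.0624). On a transcript of about 2 kb, values under about 0.1 FPKM rest on a few fragments, most of all in the shallower sorted-cell libraries. On a longer transcript the same value rests on more fragments.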

Other observations

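The sums of several other marker lists differed between groups, most of them without setting a single group apart. Mesothelial genes summed to 95.9, 125 and 313 FPKM in the allografts, at most 21.1 in metastases, 14.5 in primary tumors and 0.601 in sorted cells, and nearly all of the allograft value was Msln (mesothelin, 93.4, 115 and 310 FPKM). The allograft with the highest Msln was also that with the highest Hbegf (55.4 FPKM) and Tgfa (3.72 FPKM) and the lowest Egfr (39.5 FPKM). Mast cell genes summed to 9.99, 17.7 and 1.51 FPKM in the allografts and to at most 2.92 elsewhere, and allograft 3 lay below every metastasis (2.21 to 2.92). Lymphocyte genes summed to 16.7 to 30.0 FPKM in primary tumors and 25.8 to 46.2 in metastases, against 2.26 to 2.76 in allografts and at most 1.37 in sorted cells. Endothelial genes summed to 207 to 364 FPKM in metastases, 155 to 194 in primary tumors, 48.6 to 94.1 in allografts and 41.7 to 60.7 in sorted cells. Urothelial genes summed to at most 15.2 FPKM in any library. The part of these cells in the levels of the family was not tested.

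The ratio of Hbegf to Egfr, a ligand to its receptor on a scale free of library scaling, was 0.234, 0.265 and 0.170 in sorted cells and 0.289, 0.257 and 0.415 in primary tumors. The lowest value among metastases was 0.8 and among allografts 0.524, so every metastasis and allograft was above every sorted-cell and primary-tumor library.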
